A study of Mus musculus with 6 samples.

Results

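The alpha-actinins and the Z-disc proteins were followed here as a set of 10 genes among the 23284 genes of 1 expression table: Actn1, Actn2, Actn3 and Actn4 for the alpha-actinins, and Ldb3, Tcap, Csrp3, Myoz2, Xirp1 and Nexn for proteins of or beside the Z-disc. The genes were taken by symbol, all 10 had a row, and all 10 had at least 1 FPKM in both groups (fragments of a gene relative to its transcript length and to all mapped fragments). The table compares heart ventricles of C57BL/6 chimeric embryos at E9.5, 3 made from wild-type B6J ES cells (WT) and 3 made from B6J ES cells with the genotype Tbx5ua -/- (KD), the group that the table heads KO. Tbx5ua is a long non-coding RNA transcribed away from the promoter of the cardiac transcription factor gene Tbx5. In KD both alleles carry 3 polyadenylation signals in tandem in its second exon, so transcription stops early rather than being deleted. Both groups were made by tetraploid complementation, in which the embryo proper comes from the injected ES cells. KD embryos of the study came from 2 clonal ES cell lines, and which line gave the sequenced embryos is not given in the sources used here.

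The table holds 1 value per group, computed by Cuffdiff over the 3 embryos together. No value of a single embryo is at hand, so no SD can be given and no difference below has a replicate check. A difference is therefore given with the share of all genes of like level that differ as much. In whole ventricles, fewer cells of a type and less RNA per cell cannot be told apart. The depth of the libraries is unknown, the median log2(KD / WT) over the 11001 genes with at least 1 FPKM in both groups was 0.00, and the SD over these genes was 0.30. Tbx5ua itself was not analysed here, so the targeted gene gives no check of the labels in these values. From qRT-PCR, the paper reports that Tbx5ua was strongly lower in KD than in control embryos at E9.5.

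The Z-disc is the plate that borders each sarcomere, the contractile unit of striated muscle. Thin filaments of opposite polarity are anchored there, and alpha-actinin dimers cross-link them with an actin-binding domain at each end. Ldb3 (also Cypher or ZASP) and the calsarcin Myoz2 bind alpha-actinin, Tcap (telethonin) caps the end of titin, Csrp3 (muscle LIM protein) is a LIM-only protein, Nexn (nexilin) and Xirp1 (Xin) bind actin, and several of these genes are mutated in human cardiomyopathies. In the vertebrate genome Actn2 and Actn3 encode the sarcomeric alpha-actinins, Actn3 being the form of fast skeletal fibres, while Actn1 and Actn4 encode the non-muscle forms of stress fibres and adhesion sites.

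Of the 10 genes, 7 differed by less than 1.2-fold between WT and KD ventricles, a share near that of all genes, of which 74.2% did. Actn3 was the 1 gene of the set that differed by more than 1.5-fold. Over all genes with at least 1 FPKM in both groups, 5.01% differed by 1.5-fold or more, 2.99% being higher in KD and 2.02% lower. At a lower limit, a log2 difference of 0.32 in either direction, 3 of the 10 genes were counted, Actn3, Myoz2 and Xirp1, beside 18.6% of all genes. In KD 8 of the 10 genes were lower and 2 were higher, where 49.5% of all genes were lower. The median log2(KD / WT) of the 10 genes was -0.07. The genes kept the same order of level in both groups, from Csrp3 to Actn3.

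**Figure D1:**
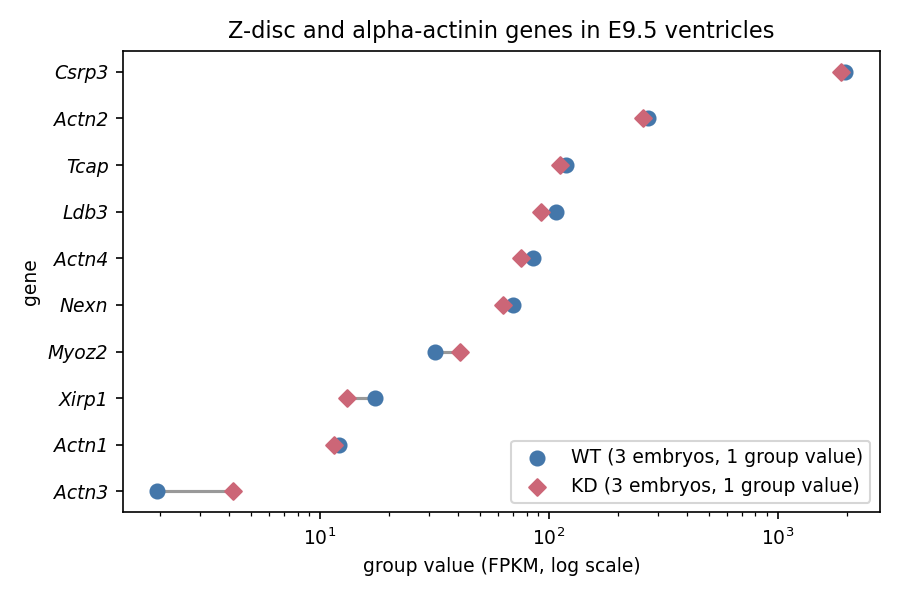
The horizontal axis is the group value in FPKM on a log scale, and each row is a gene, with a circle for the 3 WT embryos together and a diamond for the 3 KD embryos together; no error bars can be drawn. The symbols overlap or touch for most genes, and Actn3, at the bottom, is the gene whose symbols lie farthest apart, at 1.95 and 4.19 FPKM.

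The share of genes that differed by 1.5-fold or more was not the same at every level and was highest among the low genes. Among genes with a mean of 1 to 5 FPKM 11.0% differed by 1.5-fold or more, among those of 5 to 20 FPKM 3.34%, among those of 20 to 100 FPKM 1.16%, and among those over 100 FPKM 2.15%. Actn3 lies in the first of these classes, Xirp1 and Actn1 in the second, Myoz2, Nexn, Actn4 and Ldb3 in the third, and Tcap, Actn2 and Csrp3 in the last.

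**Figure D2:**
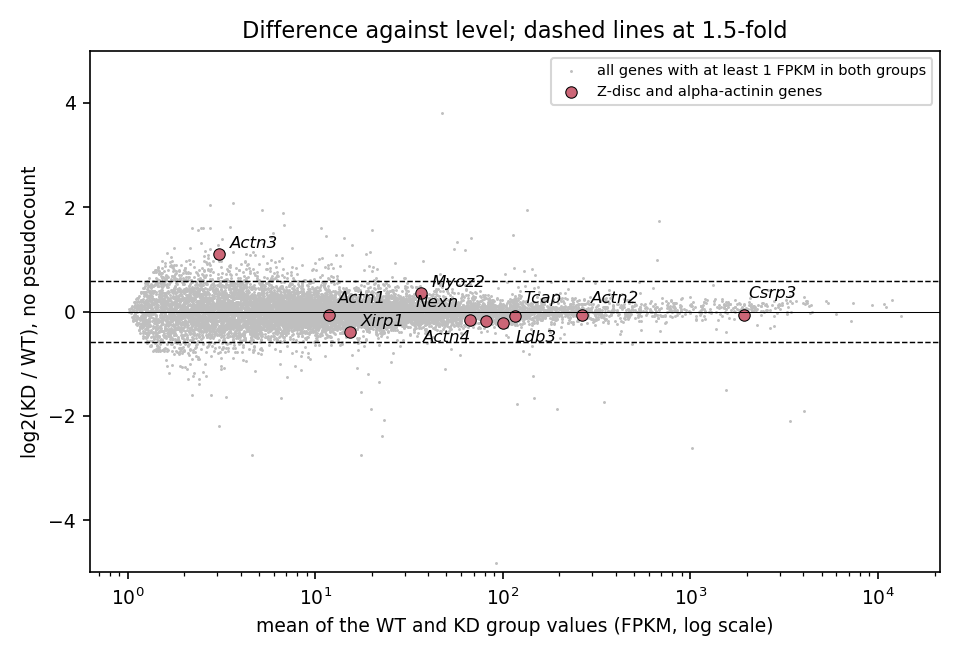
The horizontal axis is the mean of both group values in FPKM on a log scale, the vertical axis is log2(KD / WT), grey points are the 11001 genes with at least 1 FPKM in both groups, and the filled circles are the 10 genes. Actn3 lies above the upper dashed line of 1.5-fold, at 1.10, and the other 9 genes lie between the lines.

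Actn2, the alpha-actinin of cardiac sarcomeres, lies on chromosome 13 from 12269427 to 12340732 (coordinates as in the deposited table with 1 added to the start, mm10). It had 270.4 FPKM in WT and 258 in KD. The KD value was 1.05-fold lower, a log2 difference of -0.07, and 59.4% of the genes over 100 FPKM differed as much or more. No annotated gene overlaps Actn2 or lies within 5000 bases of it. Actn2 was the highest alpha-actinin in both groups, with 73.0% of the summed FPKM of the 4 genes in WT and 73.8% in KD.

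Actn4, a non-muscle alpha-actinin that bundles actin at the cell cortex, lies on chromosome 7 and had 85.8 FPKM in WT and 75.8 in KD. It was 1.13-fold lower in KD, with a log2 difference of -0.18, and 27.7% of the genes of 20 to 100 FPKM differed as much or more. Its transcript overlaps that of Capn12, a calpain gene on the opposite strand that the table places in the same locus, from 28881656 to 28962280. Capn12 had 0.0515 FPKM in WT and 0.0250 in KD, so the overlapping gene was close to 0 in both groups. Gm44699, within an intron, and Gm44700, 4764 bases away, were not analysed here.

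Actn1, the non-muscle alpha-actinin of stress fibres and platelets, lies on chromosome 12 from 80167542 to 80260371. It had 12.1 FPKM in WT and 11.6 in KD, a log2 difference of -0.07, and 76.8% of the genes of 5 to 20 FPKM differed as much or more. On the FPKM scale Actn4 was 7.08 times the level of Actn1 in WT and 6.56 times in KD. Gm47765, on the same strand within the span of Actn1, was not analysed here. Actn1 overlaps the antisense genes Gm47766 and Gm47767, which were not analysed here, and the Smart-Seq2 protocol does not mark strand, so reads of these genes cannot be told apart from reads of Actn1 where the exons overlap.

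Actn3, the alpha-actinin of fast skeletal fibres, lies on chromosome 19 from 4861223 to 4877884 and had the lowest level of the 10 genes. It had 1.95 FPKM in WT and 4.19 in KD. The KD value was 2.14-fold higher, a log2 difference of 1.10. Of the 3347 genes with a mean of 1 to 5 FPKM, 38, or 1.14%, differed as much or more. These genes all had at least 1 FPKM in both groups, so large ratios close to that limit are left out and the share is low in part for that reason. Over all genes the share past 1.5-fold was 5.01% with that limit and 7.72% with 1 FPKM in either group. On the scale of log2(FPKM + 1) the difference was 0.81. Actn3 remained a small part of the alpha-actinins, with 0.528% of the family's summed FPKM in WT and 1.2% in KD. Actn2 was 138 times the level of Actn3 in WT and 61.6 times in KD.

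Ctsf, the gene of the lysosomal protease cathepsin F, ends 297 bases from the end of Actn3 on the opposite strand, and it had 3.97 FPKM in WT and 7.02 in KD, 1.77-fold higher. Zdhhc24, which starts 758 bases from the start of Actn3 and runs the other way, had 4.18 FPKM in WT and 4.12 in KD. No exon of either neighbour overlaps Actn3 in the GENCODE annotation. Of 8 markers of skeletal muscle, Myod1, Myog, Myf5 and Myh3, which define the skeletal lineage and embryonic fibres, were listed at 0 in both groups. Of the other 4, Ckm, Tnni2 and Mylpf were higher in KD, with log2 differences of 0.56, 0.53 and 0.02, and Tnnt3 was lower, with -0.29. Their median was 0.27, with none past 1.5-fold, and the 8 genes summed to 160 FPKM in WT and 184 in KD. Markers of epicardium and of platelets and megakaryocytes were higher in KD: 5 of the 5 epicardial markers with at least 1 FPKM in both groups were higher, with a median log2 difference of 1.10, and 5 of the 5 platelet and megakaryocyte markers were higher, with a median of 1.16. With the markers below that level included, the 6 epicardial genes summed to 47.0 FPKM in WT and 95.9 in KD, and the 6 platelet and megakaryocyte genes to 47.6 and 107 FPKM. No marker of either list was at 0 in both groups. The part of these cell types and of the neighbouring gene in the value of Actn3 was not tested.

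The 4 alpha-actinin genes are close in sequence, which bears on how reads were divided between them. The stretch of 60 coding bases in which Actn1, Actn3 and Actn4 together differ least from Actn2 is shown to make this visible, read 5′ to 3′ from GENCODE M21 transcripts with bases that differ from Actn2 in capitals. It covers codons 331 to 350 of Actn2, 324 to 343 of Actn1, 337 to 356 of Actn3 and 344 to 363 of Actn4.
Actn2: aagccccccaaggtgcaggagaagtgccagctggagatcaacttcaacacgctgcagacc
Actn1: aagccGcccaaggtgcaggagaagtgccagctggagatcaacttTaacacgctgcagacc
Actn3: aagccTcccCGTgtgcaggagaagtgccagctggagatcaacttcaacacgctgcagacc
Actn4: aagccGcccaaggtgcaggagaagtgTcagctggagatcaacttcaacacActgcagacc

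In this stretch Actn3 differs from Actn2 at 4 of 60 bases, Actn4 at 3 and Actn1 at 2. The stretch was chosen for likeness to Actn2, so it need not hold the longest run that another pair shares. Over the aligned coding sequence Actn2 and Actn3 shared 75.3% of bases and 80.5% of residues, and Actn1 and Actn4 shared 80.3% of bases and 85.9% of residues. The longest identical run was 51 bases between Actn2 and Actn3 and 65 bases between Actn1 and Actn4. Of the 2838 words of 50 bases in the longest coding transcript of Actn3, 2 occur in a transcript of another gene, in each case Actn2. For Actn4 7.39% of such words occur elsewhere, almost all in Capn12, and for Actn1 10.2%, almost all in its antisense genes. For Ldb3, Tcap, Csrp3, Myoz2, Xirp1 and Nexn the number was 0. The read length is not given in the sources used here.

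Csrp3 was the most abundant of the 10 genes. This LIM-only protein of the Z-disc and the nucleus is encoded on chromosome 7 from 48830398 to 48848051. It had 1975 FPKM in WT and 1897 in KD, which placed it at rank 80 of the table in WT and rank 91 in KD. The log2 difference was -0.06, and 64.8% of the genes over 100 FPKM differed as much or more. Its paralogues Csrp2 and Csrp1, LIM-only proteins of smooth muscle and other tissues, had 363 and 82.4 FPKM in WT and 318 and 75.8 FPKM in KD. Over the aligned coding sequence Csrp3 shared 65.3% of residues with Csrp2 and 65.8% with Csrp1. Csrp3 was 5.45 times the level of Csrp2 in WT and 5.97 times in KD. Csrp3 made up 81.6% of the summed FPKM of the 3 genes in WT and 82.8% in KD. The nearest other gene, Zdhhc13, 2957 bases away, was 1.38-fold lower with 26.0 and 18.8 FPKM.

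Tcap, which caps titin at the Z-disc, lies on chromosome 11 from 98383811 to 98384953. It had 119 FPKM in WT and 112 in KD, a log2 difference of -0.08, and 55.1% of the genes over 100 FPKM differed as much or more. Ttn, the gene of titin itself, had 9.49 FPKM in WT and 8.62 in KD, a log2 difference of -0.14. Tcap was 1.11 times the level of Ldb3 in WT and 1.22 times in KD. Its neighbours Pnmt, Stard3 and Pgap3 had 8.0, 17.1 and 3.11 FPKM in WT and 7.09, 18.5 and 3.29 FPKM in KD.

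Ldb3, a PDZ and LIM domain protein that binds alpha-actinin, lies on chromosome 14 from 34526699 to 34588681. It had 107 FPKM in WT and 92.1 in KD, 1.16-fold lower, with a log2 difference of -0.22. Of the genes of 20 to 100 FPKM, 18.9% differed as much or more. The mean of Ldb3 lies just below the border of that class, so the share depends on the border. Among genes over 100 FPKM the 10th percentile of log2(KD / WT) was -0.15. Ldb3 belongs to a family of 7 PDZ-LIM genes, which summed to 885 FPKM in WT and 799 in KD. Pdlim7 (Enigma) was the highest of them with 313 FPKM in WT and 284 in KD, and Pdlim5 had 175 and 160 FPKM. Pdlim3, the actinin-associated LIM protein ALP, differed more than Ldb3, with 119.8 FPKM in WT and 87.4 in KD, 1.37-fold lower. Pdlim1 had 167 and 170.3 FPKM. The lowest family members were higher in KD, Pdlim4 with 2.93 and 3.65 FPKM and Pdlim2 with 0.948 and 1.78 FPKM. Opn4, 1935 bases from Ldb3, had 2.43 and 1.51 FPKM, 9230112D13Rik was listed at 0 in both groups, and Gm49012 was not analysed here. Ldb3 held 12.1% of the family's sum in WT and 11.5% in KD.

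Nexn, which encodes the actin-binding protein nexilin, lies on chromosome 3 from 152236984 to 152266320. It had 70.2 FPKM in WT and 63.0 in KD, 1.11-fold lower, with a log2 difference of -0.16. Of the genes of its class 34.4% differed as much or more. Fubp1, which ends 155 bases from the end of Nexn on the other strand, had 33.2 and 27.6 FPKM, a log2 difference of -0.27. Gm43185, which overlaps an exon of Nexn, was not analysed here.

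Xirp1 encodes a Xin repeat protein of adherens junctions at the ends of cardiomyocytes and lies on chromosome 9 from 120013755 to 120023598. It had 17.4 FPKM in WT and 13.2 in KD. It was 1.32-fold lower in KD, the largest difference downward of the 10 genes, with a log2 value of -0.40. Of the 3808 genes of 5 to 20 FPKM, 394, or 10.3%, differed as much or more. Its paralogue Xirp2 was listed at 0 in WT and at 0.0282 FPKM in KD. Xirp1 lies within the span of Cx3cr1, a chemokine receptor gene, without overlap of exons, and Cx3cr1 had 0.127 and 0.0109 FPKM. Gm49427, 2306 bases away, was not analysed here.

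Myoz2 encodes calsarcin-1, which ties the phosphatase calcineurin to alpha-actinin, and lies on chromosome 3 from 123006206 to 123034987. It had 31.9 FPKM in WT and 40.9 in KD, 1.28-fold higher, with a log2 difference of 0.36. Of the 2682 genes of 20 to 100 FPKM, 149, or 5.56%, differed as much or more. Myoz2 and Actn3 were the genes of the set that were higher in KD. The paralogue Myoz1, the calsarcin of fast skeletal fibres, had 24.9 FPKM in WT and 27.1 in KD, and Myoz3 had 0.0700 and 0.156 FPKM. Myoz2 and Myoz1 shared 38.0% of residues, and Myoz2 was 1.28 times the level of Myoz1 in WT and 1.51 times in KD. The miRNA gene Gm22066, within an intron of Myoz2, was not analysed here. Myoz2 made up 56.1% of the calsarcin sum in WT and 60.04% in KD.

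**Figure D3:**
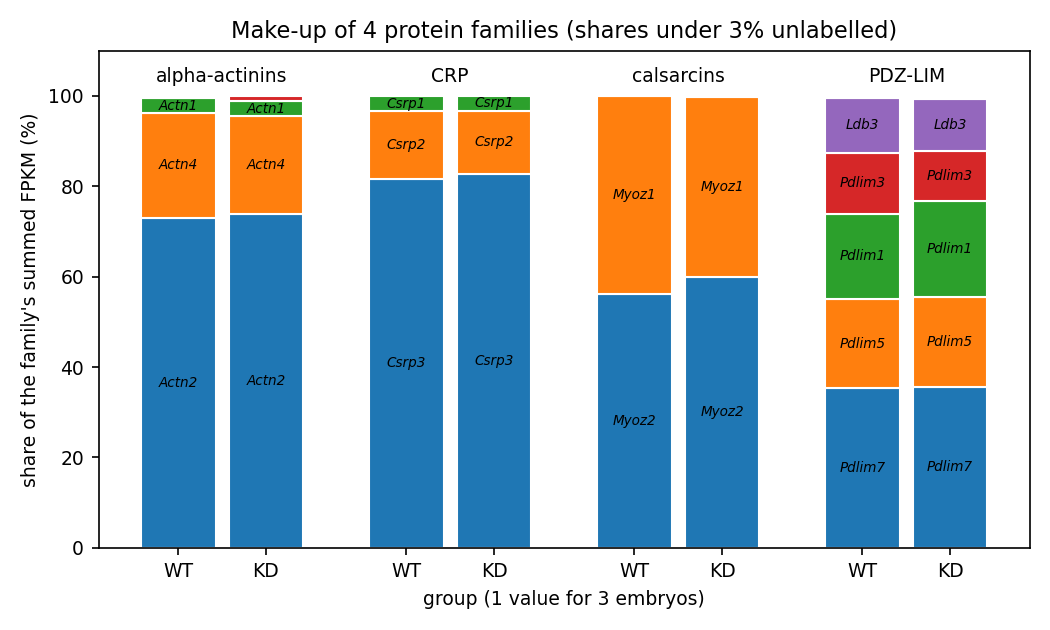
Each pair of bars gives WT and KD, and the coloured parts are each gene's share in percent of the summed FPKM of its family (alpha-actinins, CRP or cysteine-rich LIM proteins, calsarcins and PDZ-LIM proteins). Actn2 and Csrp3 hold most of their families in both groups, at 73.0% and 81.6% in WT, and Myoz2 holds 56.1% of the calsarcins in WT and 60.04% in KD.

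Promoter sequence from RefSeq (GRCm38.p6, 250 bases before to 50 after each start) was matched for 6 of the 10 genes, Actn1, Actn2, Actn4, Ldb3, Csrp3 and Myoz2, with 8 entries. No entry was matched for Actn3, Tcap, Xirp1 and Nexn. Both strands were searched for GGTGTGA (a form of the T-box motif bound by Tbx5) and CATTCC (MCAT, bound by TEAD factors). Also searched were AGATAA (a form of the motif of GATA factors, which bind other forms too), the CArG box bound by serum response factor and the MEF2 site. Neither GGTGTGA nor AGATAA was in any of the 8 entries, where 3.98% and 11.2% of the 32851 promoters of the table hold them. GGTGTCA and GGTGTTA, which differ from GGTGTGA in a single letter, were not among the motifs counted. On either strand, GGTGTCA does occur in entries of Actn1 and Ldb3, and GGTGTTA in an entry of Csrp3. AGATAG, another form that GATA factors bind, was not among the motifs counted and does occur in entries of Ldb3, Csrp3 and Myoz2. The MCAT letters were found in Actn4, from -216 to -211 relative to the start, and 14.7% of all promoters hold them. The promoters of Ldb3 and Myoz2 hold the less common motifs and are shown for that reason. Ldb3 was lower and Myoz2 higher in KD, and a link between motif and direction was not tested. The capitals mark a CArG box in Ldb3 (chr14:34588632-34588931, minus strand), from -35 to -26 relative to the start, and a MEF2 site in Myoz2 (chr3:123034938-123035237, minus strand), from -33 to -24.
Ldb3: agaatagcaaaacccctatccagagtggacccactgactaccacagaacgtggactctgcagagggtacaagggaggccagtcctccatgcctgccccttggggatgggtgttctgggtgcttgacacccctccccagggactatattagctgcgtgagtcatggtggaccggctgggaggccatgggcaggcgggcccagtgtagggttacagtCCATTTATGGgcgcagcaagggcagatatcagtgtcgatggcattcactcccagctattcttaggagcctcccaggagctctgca
Myoz2: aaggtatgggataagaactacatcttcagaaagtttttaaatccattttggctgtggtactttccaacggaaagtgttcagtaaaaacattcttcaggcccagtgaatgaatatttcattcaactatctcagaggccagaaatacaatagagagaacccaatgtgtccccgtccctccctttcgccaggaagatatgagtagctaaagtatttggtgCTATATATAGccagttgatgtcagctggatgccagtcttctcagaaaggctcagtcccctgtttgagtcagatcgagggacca

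A CArG box occurs in 1.63% of all promoters of the table and a MEF2 site in 0.557%. The second Ldb3 entry holds the same CArG box farther from its start. The MEF2 letters of Myoz2 contain TATATA, the letters of a TATA box, and lie where such a box usually does. These matches describe letters in the sequence, not binding.

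Of 40 further genes of the Z-disc and its surroundings, 32 had at least 1 FPKM in both groups. Of these 23 were lower in KD and 9 higher, where 49.5% of all genes were lower, with a median log2 difference of -0.13 beside 0.00 for all genes, and 3 differed by 1.5-fold or more, where 5.01% of all genes did. Cryab (a small heat shock protein of the Z-disc), Des (desmin) and Smpx were the highest, with 699.6, 677 and 618 FPKM in WT and 641, 650.3 and 612 FPKM in KD. Ankrd1, a stretch-responsive ankyrin repeat protein that binds titin, had 347 FPKM in WT and 231 in KD. Flnc, the muscle filamin, had 20.7 FPKM in WT and 13.8 in KD. Both had a log2 difference of -0.59, just past the 1.5-fold limit, and the next gene below it, Fhl1, was 1.40-fold lower with 124 and 88.3 FPKM. With differences taken relative to the cardiomyocyte markers, neither Ankrd1 nor Flnc reached 1.5-fold. Nrap, an actin-binding protein of myofibril assembly, was 1.72-fold higher with 1.15 FPKM in WT and 1.98 in KD, and its difference fell below 1.5-fold on the scale of log2(FPKM + 1). The 8 genes below 1 FPKM in a group were Myoz3, Myot, Mypn, Pdlim2, Neb, Ankrd2, Xirp2 and Actc1. Actc1, the cardiac actin gene, is listed at 0 because Cuffdiff skipped it for too many reads.

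A list of 24 genes of adhesion sites, actin cross-linkers and other linkers of the cytoskeleton had a median log2 difference of -0.07. Of these, 14 were lower and 10 higher in KD, where 49.5% of all genes were lower. Vcl (vinculin), which binds alpha-actinin at adhesion sites, had 24.6 FPKM in WT and 23.3 in KD. Fscn1, Ilk and Zyx were the highest of the list, with 176, 170.3 and 89.3 FPKM in WT and 168, 168 and 92.6 FPKM in KD. Lims2 was 1.62-fold lower with 2.35 and 1.45 FPKM, and Lcp1, the plastin of leukocytes, was 1.54-fold higher with 7.76 and 11.9 FPKM. Over all genes 5.01% differed by 1.5-fold or more. The share was 11.0% at a mean of 1 to 5 FPKM, the class of Lims2, and 3.34% at 5 to 20 FPKM, the class of Lcp1. When genes below 5 FPKM were left out the median was 0.01 over 17 genes, so its sign rests on low genes.

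The defining markers of cardiomyocytes were at high levels in both groups, as the label of the tissue says. The 7 markers Tnnt2, Myh6, Myh7, Myl7, Myl4, Tnni1 and Nkx2-5 summed to 25468 FPKM in WT and 24464 in KD, with a median log2 difference of -0.03, a range from -0.25 to 0.14 and none past 1.5-fold. Relative to that median, the median of the 10 genes was -0.04, Xirp1 stood at -0.37, Myoz2 at 0.39 and Actn3 at 1.13. Endocardial markers had a median log2 difference of -0.11 and primitive erythroid markers 0.11, with none past 1.5-fold in either list. Smooth muscle markers, several of which embryonic cardiomyocytes also express, had a median of -0.33 over 4 genes, Tagln being the lowest at -0.61. The part of these cell types in the differences of the 10 genes was not tested.

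**Figure D4:**
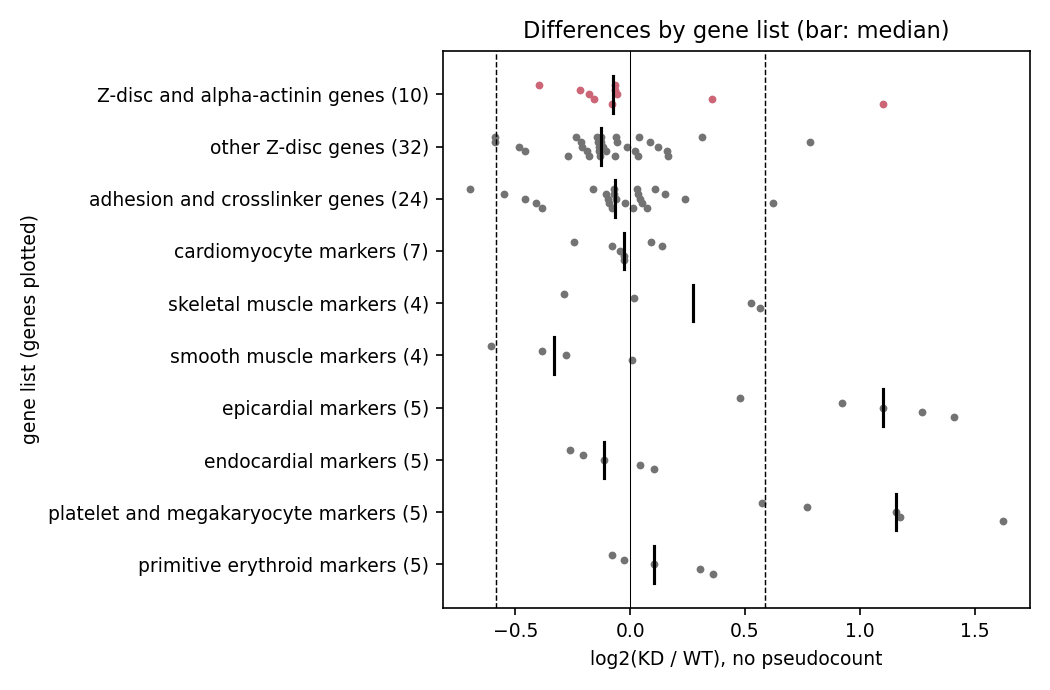
Each point is log2(KD / WT) of a gene with at least 1 FPKM in both groups, the rows are the gene lists with the number of genes plotted, the bar is the median and the dashed lines mark 1.5-fold. The Z-disc and alpha-actinin genes centre on -0.07 near the cardiomyocyte markers at -0.03, with Actn3 at 1.10, while the epicardial and the platelet and megakaryocyte markers centre on 1.10 and 1.16.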

How the data were processed

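RNA-seq libraries were made by Smart-Seq2 from 10 ng of total RNA of 6 ventricle samples, amplified in 12 PCR cycles and, after tagmentation, 9 more, which can distort low levels. Per the labels, the authors used TopHat, Bowtie2 and Cuffdiff on mm10, versions not given in the sources used here. The authors deposited 1 table with an FPKM value per gene and group. Its 5 columns of the authors' own comparison (fold change, test statistic, p, q and a significance mark) were not used. No column of a single embryo was mapped or left out (0 columns), depth is unknown, and no test was made. The p-values of Cuffdiff do not enter any count here.

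The log2 ratio of the group values was computed with a pseudocount of 0 for genes with at least 1 FPKM in both groups. A fold of 1.5 was the limit for counts, beside the share over all genes kept and in classes of mean level (1 to 5, 5 to 20, 20 to 100 and over 100 FPKM). The 10 genes and all lists were chosen with earlier results of these data known. All 10 genes were named, and of the other Z-disc and adhesion lists the paralogues, the genes past 1.5-fold, the 3 highest in WT, and every gene that overlaps a member or lies within 5000 bases of it; some further names (Vcl, Pdlim3, Fhl1, Ttn) were chosen after their values were seen. Starts in the table have 1 added: 6297 of 20862 genes matched by symbol then start as in GENCODE M21, and 682 without. Words of 50 bases were searched in all GENCODE M21 transcripts on both strands. Coding sequences were translated and aligned pairwise. The counting was tested on simulated data with differences set at 2-fold in either direction. These lie past the 1.5-fold limit by construction, so only the code was checked, not the noise of these data. Python 3.11.15, NumPy 2.4.6, pandas 2.3.3, Biopython 1.88 and Matplotlib 3.10.9 were used.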

Additional observations from a re-analysis of the deposited data

How the results depend on the processing

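No paired analysis was possible because only group values were given, and for the same reason leaving out each replicate was not run. The spread between embryos and the depth are unknown, so low genes such as Actn3 are the least certain. Here a log2 value was counted as moved where it differed at 2 decimals, and a count where it differed by over 1.5 times. 2 alternatives, differences relative to the median of the cardiomyocyte markers and leaving out Actn3, were chosen after seeing the data.

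The 1 gene of the set past 1.5-fold, Actn3, was also the 1 past 2-fold, where 0.99% of all genes were. The count was by construction 0 without Actn3 and with at least 5 FPKM required in both groups, which removes Actn3, and it was 3 at a log2 limit of 0.32. The median of the 10 genes went from -0.073 to -0.078 with at least 5 FPKM or without Actn3, -0.076 less the median of all genes, -0.10 with equal sums of FPKM and -0.045 relative to the cardiomyocyte markers. The other Z-disc genes past 1.5-fold went from 3 to 1 with a pseudocount of 1 (Ankrd1), 1 relative to the cardiomyocyte markers (Nrap), 6 with no filter, 5 at a log2 limit of 0.32 and 0 at 2-fold. It was 2 with at least 5 FPKM in both groups, where Nrap was left out, and 4 with 1 FPKM in either group or with equal sums, where Pdlim2 was added. The share of all genes past the limit moved too, from 5.01% to 2.36% with a pseudocount of 1, 1.82% with at least 5 FPKM, 7.72% with 1 FPKM in either group and 21.1% with no filter, so 6 of 37 genes with no filter is a smaller share than that of all genes. Their median went from -0.125 to -0.123 with a pseudocount of 1, -0.125 with 1 FPKM in either group or with no filter, -0.155 with equal sums and -0.097 relative to the cardiomyocyte markers. The median of the adhesion genes went from -0.065 to -0.055 and -0.064 with pseudocounts of 1 and 0.1, -0.096 with equal sums and -0.037 relative to the cardiomyocyte markers, and to 0.013 with at least 5 FPKM, where fewer genes enter. A filter cannot alter the ratio of a single gene. Of the 50 values of single genes of the set recomputed under the other settings, 24 were the same at 2 decimals, 26 moved and 0 changed sign. A pseudocount cannot change a sign, and the remaining settings shift all genes by a common, small amount. The absence of sign changes is therefore no check of direction. Actn3 ranged from 0.81 to 1.13, Myoz2 from 0.33 to 0.39 and Xirp1 from -0.43 to -0.37.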
